A study of Homo sapiens with 2 samples.

Results

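Transcripts of 10 genes of the fibroblast growth factor (FGF) pathway were read in outgrowth cultures of HUES9, a human embryonic stem cell line. The genes encode the receptors FGFR1, FGFR2, FGFR3 and FGFR4, the ligands FGF2 and FGF7, and the feedback inhibitors SPRY1, SPRY2, SPRY4 and DUSP6. They were taken by name, with every probe set that the platform annotation gives to 1 of them alone, which made 36 probe sets for 10 of the 19775 genes on the array that have a probe set of their own. The stem cells, at passage 32, spent 10 days as embryoid bodies, which are clusters in suspension where differentiation starts. These were plated on fibronectin in chemically defined medium, and the outgrowing cells were passaged. SB-OG cultures were given SB-431542, which blocks the kinases of the TGF-β, activin and nodal type I receptors, at 10 µM as embryoid bodies and at 1 µM as outgrowths. Control-OG cultures had 0.01% DMSO, the solvent, instead. FGF2 (bFGF) was left out of the embryoid body medium of both, and no FGF is named among the components of the outgrowth medium. At passage 5 of the outgrowth, 3 samples per condition were pooled, and each pool went onto 1 array. With n = 1 for each condition, from 1 cell line, no difference below can be tested against replicates.

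FGF ligands bind receptor tyrosine kinases of the FGFR family together with heparan sulphate on the cell surface. The bound receptor acts through adaptor proteins on the RAS, RAF, MEK and ERK kinases, and ERK switches on, among others, ETS family transcription factors and genes for the pathway's own inhibitors. Sprouty proteins (SPRY) hold back the steps between receptor and ERK, and the phosphatase DUSP6 removes the activating phosphates from ERK, so that transcripts of these inhibitors are widely used as readouts of pathway activity. In vertebrate embryos FGF signals pattern mesoderm, and they keep muscle progenitors dividing.

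The values are linear intensities of probe sets, groups of short oligonucleotides that report 1 transcript. The 2 arrays had median intensities of 21.8 on SB-OG and 22.6 on control-OG. The background, taken as the 95th percentile over 213 probe sets of 172 genes assumed silent in these cells, was 27.6 on SB-OG and 32.6 on control-OG. A value under background was set to it before a difference was taken, so a fold with only 1 array above background is a lower bound, written "at least". Among probe sets above background on both arrays, those of the same gene scattered with an SD of 0.46 in log2 difference (4931 genes). That is a spread within 1 pair of arrays, so it holds no variation between arrays or between pools. All log2 differences are SB-OG minus control-OG.

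In SB-OG, 5 of the 10 genes were higher by 2-fold or more, 2 were lower by 2-fold or more and 3 lay within 2-fold. The shares past the same limits among all 12502 genes above background on 1 array or both were 12.4% higher and 13.0% lower. These are 1555 and 1626 genes, against 3017 higher and 909 lower when the arrays were scaled on the hybridisation controls, which adds 0.47 to every log2 difference. The 5 higher genes were FGFR4 and all 4 inhibitors, and the lower ones were FGFR2 and FGF2. The median log2 difference of the 10 genes was 1.44, against -0.02 over all 12502 genes. All 10 genes passed the background filter on at least 1 array and 8 of them on both. Of their 36 probe sets, 25 exceeded background on 1 array or both, with 11 higher and 6 lower in SB-OG by 2-fold or more. Over all 23392 probe sets above background that were named for 1 gene, the shares were 12.7% higher and 12.0% lower. The 10 genes were chosen with earlier results of these data known.

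**Figure D1:**
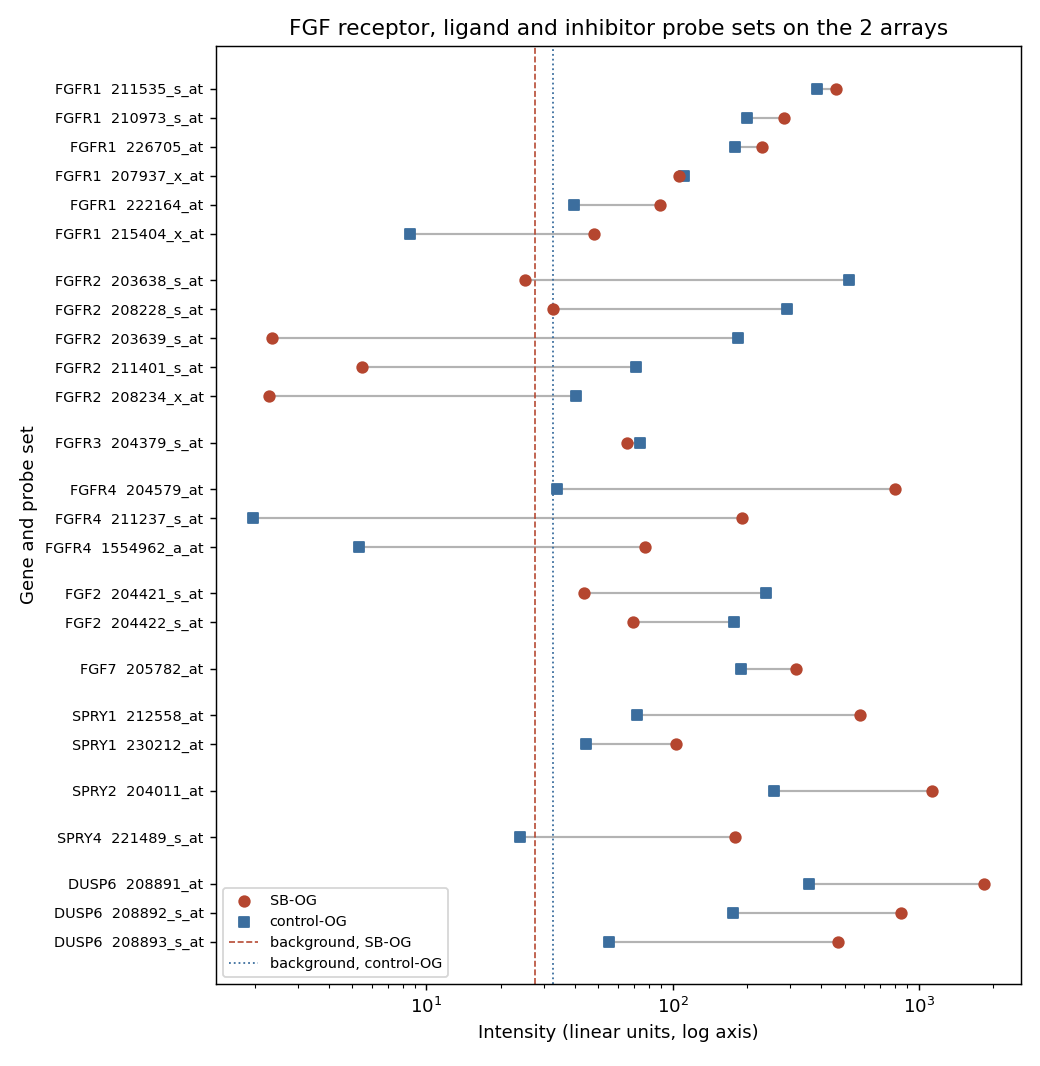
Intensity on the SB-OG array (circles) and on the control-OG array (squares) of the 25 probe sets above background on at least 1 array, on a log axis, with a line joining the values of 1 probe set and vertical lines at the background levels of 27.6 and 32.6. FGFR4, SPRY1, SPRY2, SPRY4 and DUSP6 probe sets lie further right on SB-OG, FGFR2 and FGF2 probe sets further right on control-OG, and the brightest FGFR1 probe sets lie close together.

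Among the receptors the largest differences lay on opposite sides. FGFR4, the family member known in mouse and chick for its expression in muscle progenitors, had an intensity of 800.1 on SB-OG and 33.9 on control-OG by its brightest probe set, 204579_at. It was high on SB-OG and barely above background on control-OG, a 23.6-fold difference (log2 difference 4.56). Only 0.760% of the genes above background had a larger positive difference, and FGFR4 ranked at place 96 from the top. The probe set 211237_s_at read 191 on SB-OG and 1.97 on control-OG, at least 5.87-fold higher. The probe set 1554962_a_at read 77.3 on SB-OG and 5.33 on control-OG, at least 2.37-fold higher. The fourth, 1554961_at, was under background on both arrays. All 3 probe sets that reported FGFR4 were thus higher on SB-OG, and 2 of these reported no signal above background on control-OG.

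FGFR2, whose splice forms serve epithelium and mesenchyme, went the other way. Its brightest probe set, 203638_s_at, had an intensity of 25.2 on SB-OG, under background, and 519 on control-OG, at least 18.8-fold lower in SB-OG (log2 difference -4.23 or lower). The probe set 208228_s_at read 32.6 on SB-OG and 293 on control-OG, 8.99-fold lower. The other FGFR2 probe sets above background, which were so on control-OG only, were 203639_s_at at 2.36 on SB-OG and 185 on control-OG, 211401_s_at at 5.47 and 71.1, and 208234_x_at at 2.29 and 40.5. FGFR2 was therefore detected by 5 of 11 probe sets on control-OG and by 1, just over background, on SB-OG. The remaining 6 probe sets read between 1.08 and 23.9 on SB-OG and between 1.67 and 25.9 on control-OG, all under background. The 5 that detected FGFR2 all carry _s or _x in their names, marks of probe sets that may also match related transcripts. Probe sequences were not used here, so the splice form that each probe set reports is not given.

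FGFR1, the receptor of broad use in mesenchymal cells, differed little by its brightest probe set, 211535_s_at. It had an intensity of 461 on SB-OG and 386 on control-OG, a log2 difference of 0.26 that is smaller than the spread between probe sets of 1 gene. Of the others, 207937_x_at, 210973_s_at, 226705_at and 222164_at were above background on both arrays and ranged from -0.08 to 1.17, with 222164_at past 2-fold at 89.3 on SB-OG and 39.8 on control-OG. The probe set 215404_x_at read 48.1 on SB-OG and 8.56 on control-OG, under background there, and was at least 1.48-fold higher. The last, 207822_at, was under background on both arrays. FGFR3, known for its restraint of cartilage growth, read 65.4 on SB-OG and 74.0 on control-OG by 204379_s_at, a log2 difference of -0.18. That difference was 0.29 when the arrays were scaled on the hybridisation controls. With the background at the 99th percentile, 77.2 on SB-OG, FGFR3 was under background there. The value of 0.06 then sets that background against the control-OG signal. Its other probe set, 204380_s_at, was under background on both arrays. FGFR1 was thus well above background on both arrays, FGFR4 on SB-OG and FGFR2 on control-OG. Probe sets of different genes have different sensitivities, so the levels of the 4 receptors are not set against each other.

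Markers of cell types were read on the same 2 arrays, where 12.4% of all genes were 2-fold higher and 13.0% lower. All 12 skeletal muscle markers, among them MYOD1, MYOG, PAX7 and MYH3, were past 2-fold higher in SB-OG, and their summed intensity was 57810 on SB-OG and 482 on control-OG. MYOD1, MYOG and CKM were under background on control-OG, at 7.66 or less. Of 9 detected fibroblast markers, 7 were lower in SB-OG by 2-fold or more and 1 was higher, with summed intensities of 38432 on SB-OG and 88086 on control-OG. Of 5 detected epithelial markers, 4 were lower by 2-fold or more, KRT8, KRT18, KRT19 and DSP. The other, CDH1, was at least 2.54-fold higher, at 82.8 on SB-OG and 26.9 on control-OG. The list's summed intensities were 560.2 on SB-OG and 17042 on control-OG, where KRT18 read 8655, KRT19 4918 and KRT8 2895. EPCAM, CLDN4, CLDN7, GRHL2 and, by its brightest probe set, ESRP1 were under background on both arrays. Of 4 detected endothelial markers, 2 were lower by 2-fold or more and none was higher, with sums of 155 on SB-OG and 1471 on control-OG, and CDH5 was under background on both. Of 7 detected neural markers, 5 were higher by 2-fold or more and 1 was lower. The higher ones were DCX (at least 42.7-fold), NEFM (38.3-fold), NES (26.6-fold), MAP2 (at least 17.5-fold) and NEFL (at least 14.4-fold). The lower one, STMN2, read 24.3 on SB-OG and 2606 on control-OG, at least 94.5-fold lower. The sums were 20173 on SB-OG, where NES read 8535 and TUBB3, within 2-fold, 6918, and 7227 on control-OG. PAX6 was under background on both. The pluripotency gene NANOG, at 5.06 on SB-OG and 4.15 on control-OG, was under background. The part of these cell types in the FGF gene differences was not tested, and in mixed RNA fewer cells of a type and less RNA per cell cannot be told apart.

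FGF2, or basic FGF, a ligand for several FGF receptors, was lower in SB-OG by both of its probe sets. The brighter, 204422_s_at, had an intensity of 68.9 on SB-OG and 178 on control-OG, 2.58-fold lower (log2 difference -1.37). The other, 204421_s_at, read 43.7 on SB-OG and 239 on control-OG, 5.47-fold lower. FGF2 stayed above background on both arrays, and 8.22% of genes had a more negative difference. With the background at the 99th percentile, 77.2 on SB-OG, FGF2 was under it there, at a log2 difference of -1.21 or lower. With scaling on the hybridisation controls the log2 difference of FGF2 was -0.90, within 2-fold.

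FGF7, the keratinocyte growth factor made by mesenchymal cells, had an intensity of 318 on SB-OG and 189 on control-OG by 205782_at. That is 1.68-fold higher, within the 2-fold limit, with a log2 difference of 0.75, and 1.22 with scaling on the hybridisation controls. Its other 2 probe sets, 1555102_at and 1555103_s_at, were under background on both arrays, at 18.6 or less. A further probe set, which the annotation gives to FGF7 and its pseudogenes FGF7P3 and FGF7P6 together, went the other way, at 748 on SB-OG and 1179 on control-OG (log2 difference -0.66). The direction for FGF7 therefore rests on 1 probe set.

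**Figure D2:**
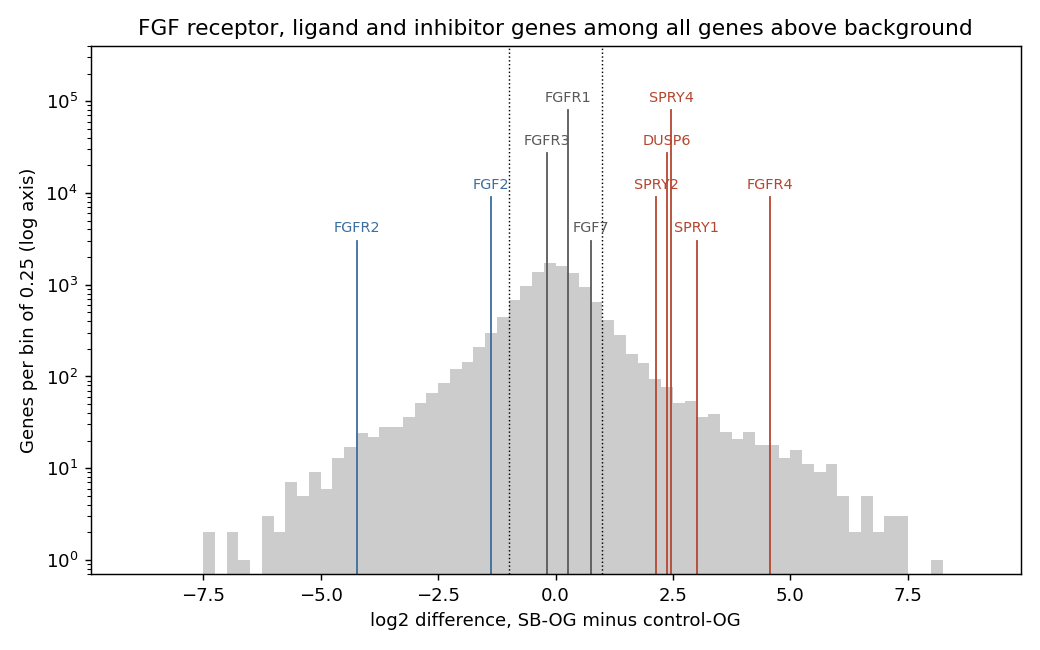
Number of genes per bin of log2 difference (SB-OG minus control-OG, horizontal axis; log vertical axis) for the 12502 genes above background on at least 1 array, with vertical lines at the differences of the 10 FGF genes and dotted lines at 2-fold. FGFR4 lies at 4.56 and the inhibitors SPRY2, DUSP6 and SPRY1 between 2.14 and 3.00 on the right, FGF2 at -1.37 on the left, and the lines of SPRY4 at 2.46 and FGFR2 at -4.23 mark bounds.

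All 4 feedback inhibitors were higher in SB-OG, with log2 differences of 2.14 for SPRY2, 2.37 for DUSP6, 3.00 for SPRY1 and at least 2.46 for SPRY4. SPRY1, a Sprouty protein that mouse muscle satellite cells need to return to quiescence, had an intensity of 577 on SB-OG and 71.9 on control-OG by 212558_at, 8.02-fold higher. Its other probe set, 230212_at, read 103 on SB-OG and 44.4 on control-OG, 2.32-fold higher. SPRY2, a widely expressed Sprouty protein, read 1136 on SB-OG and 258 on control-OG by 204011_at, 4.41-fold higher. Both genes were well above background on both arrays.

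SPRY4, another Sprouty protein, read 180 on SB-OG and 24.0 on control-OG by 221489_s_at, under background there, and was at least 5.51-fold higher. DUSP6, the ERK phosphatase, had an intensity of 1844 on SB-OG and 358 on control-OG by its brightest probe set, 208891_at, 5.15-fold higher. Its other probe sets, 208892_s_at and 208893_s_at, read 847 on SB-OG and 176 on control-OG (4.80-fold), and 472 on SB-OG and 55.4 on control-OG (8.51-fold). Each of the 7 probe sets for the 4 inhibitors was thus at least 2-fold higher on SB-OG. From 2.10% of genes (above SPRY1) to 3.90% (above SPRY2) had larger positive differences.

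Promoter sequences of these 4 inhibitors and of FGFR4 are printed to show their start regions. They come from RefSeq on build GRCh38.p14, each running from 250 bases before a transcription start to 50 after it, 5′ to 3′ on the gene's strand. In the first 4, capitals mark CCGGAA, a form of the ETS motif, or its reverse complement TTCCGG. Other forms of the ETS motif, such as those with GGAA after other letters, were not counted and are not marked. In FGFR4 capitals mark the E-box CANNTG, the letters that myogenic factors and other basic helix-loop-helix proteins bind. The windows are chr4:123398136-123398435 on the plus strand for SPRY1, chr13:80341077-80341376 on the minus strand for SPRY2, chr5:142324198-142324497 on the minus strand for SPRY4, chr12:89352452-89352751 on the minus strand for DUSP6 and chr5:177086665-177086964 on the plus strand for FGFR4.
SPRY1: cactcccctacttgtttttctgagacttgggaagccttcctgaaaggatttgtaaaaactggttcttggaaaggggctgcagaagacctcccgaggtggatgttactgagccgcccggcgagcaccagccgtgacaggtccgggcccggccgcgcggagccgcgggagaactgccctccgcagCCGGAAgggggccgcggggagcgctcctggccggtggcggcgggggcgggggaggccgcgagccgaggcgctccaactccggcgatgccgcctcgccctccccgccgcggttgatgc
SPRY2: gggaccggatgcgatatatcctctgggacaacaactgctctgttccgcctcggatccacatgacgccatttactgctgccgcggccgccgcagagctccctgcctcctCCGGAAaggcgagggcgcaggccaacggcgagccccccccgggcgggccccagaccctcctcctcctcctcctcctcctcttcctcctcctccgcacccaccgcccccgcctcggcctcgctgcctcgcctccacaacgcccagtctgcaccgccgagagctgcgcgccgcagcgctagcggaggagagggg
SPRY4: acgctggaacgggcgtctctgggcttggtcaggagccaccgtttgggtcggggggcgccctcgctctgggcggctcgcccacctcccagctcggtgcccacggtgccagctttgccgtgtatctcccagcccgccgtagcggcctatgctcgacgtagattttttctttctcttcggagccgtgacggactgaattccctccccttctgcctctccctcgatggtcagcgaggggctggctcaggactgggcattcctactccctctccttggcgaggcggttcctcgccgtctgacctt
DUSP6: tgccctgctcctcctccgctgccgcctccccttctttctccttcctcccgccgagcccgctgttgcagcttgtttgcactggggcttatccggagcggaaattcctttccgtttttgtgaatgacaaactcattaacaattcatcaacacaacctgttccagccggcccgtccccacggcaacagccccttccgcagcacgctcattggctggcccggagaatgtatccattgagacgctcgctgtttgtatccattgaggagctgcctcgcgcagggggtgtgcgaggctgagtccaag
FGFR4: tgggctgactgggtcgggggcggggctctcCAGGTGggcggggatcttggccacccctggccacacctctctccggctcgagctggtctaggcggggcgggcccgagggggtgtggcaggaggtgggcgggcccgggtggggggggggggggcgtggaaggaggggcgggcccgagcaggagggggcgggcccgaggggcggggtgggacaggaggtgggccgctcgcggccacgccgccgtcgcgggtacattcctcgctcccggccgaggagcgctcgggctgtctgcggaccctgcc

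The form CCGGAA was found in 1 SPRY1 window, at position -67 from the start, and in 1 SPRY2 window, at position -142. SPRY1 has 2 windows and SPRY2 has 3, and the window with a match is the one printed. The single windows of SPRY4 and DUSP6 do not hold these letters. In all, 2 of 7 windows of the inhibitors held CCGGAA, against 17.2% of the 35116 windows of all genes in the table. The E-box was found in 2 of these 7 windows. The E-box was found in both FGFR4 windows, in the printed one at position -220, against 68.7% of all windows. The E-box form CAGCTG was found in neither FGFR4 window, against 17.9% of all windows. Windows of 9 of the 10 genes, 17 in all, were in the table, with FGFR1 not among them. Of these 17 windows, 2 held CCGGAA, 9 the E-box and 1 the form CAGCTG. Each is a smaller share than among all windows. A match of letters is a description and not a binding site.

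The wider pathway was read from lists of FGF genes by role. Of 84 pathway genes outside the 10, 77 had a probe set of their own and 59 were above background on at least 1 array. The 84 include 4 intracellular FGF homologues, which do not act as secreted ligands. Of these 4, 2 were above background, and both are among the higher genes counted next. In SB-OG, 17 of the 59 were higher by 2-fold or more and 13 lower, where 12.4% and 13.0% of all genes were so. With scaling on the hybridisation controls, 24 were higher and 7 lower. The median log2 difference was 0.21, against -0.02 over all genes.

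Of 18 secreted FGF ligands, 7 were above background, and 2 of these besides FGF2 lay past 2-fold, FGF9 and FGF10. FGF9, a ligand with roles in embryonic mesenchyme, read 328 on SB-OG and 25.8 on control-OG, at least 10.1-fold higher, with another probe set at 1.16. FGF10, the mesenchymal ligand of the epithelial splice form of FGFR2, read 0.541 on SB-OG and 322 on control-OG, at least 11.7-fold lower. FGF1 and FGF18 were within 2-fold. FGF6 read 43.1 on SB-OG and 27.5 on control-OG, under background there, and was at least 1.32-fold higher, while FGF3, FGF4, FGF5, FGF8, FGF16, FGF17, FGF19, FGF20, FGF21, FGF22 and FGF23 were not above background on either array. FGF10, FGF2 and FGFR2 were therefore the ligand and receptor genes past 2-fold lower in SB-OG. Among co-receptors, KL, the klotho partner of FGF receptors for FGF23, was at least 2.59-fold higher, at 84.5 on SB-OG and 19.9 on control-OG. FGFRL1, a receptor relative that lacks a kinase domain, read 109 on SB-OG and 99.4 on control-OG, and KLB was not above background.

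The feedback list held 7 inhibitors beside the 4 described. Of the 6 of them above background, 2 were at least 2-fold higher and none lower, where 12.4% and 13.0% of all genes were so. Their median log2 difference was 0.73. IL17RD, the membrane inhibitor also known as Sef, read 161 on SB-OG and 37.4 on control-OG, 4.29-fold higher. SPRED1, a Sprouty-related inhibitor of RAS signalling, read 322 on SB-OG and 126 on control-OG, 2.55-fold higher, and its other probe sets gave 0.24 to 0.39. With the mean of all probe sets both came within 2-fold, IL17RD at 0.93 and SPRED1 at 0.66, and 4 genes of the list were then past it. SPRED2, DUSP4 and DUSP5 were within 2-fold at 0.94, 0.53 and 0.21, and SPRED3 was at -0.84. The other DUSP4 probe sets gave 0.13 and 1.38, the latter past 2-fold. SPRY3 was not above background on either array. The whole list of 11 had 6 of 10 genes at least 2-fold higher. Of these 6, 4 are the inhibitors described above, which were chosen with earlier results of these data known. The median of the whole list kept a positive sign under every setting tried, between 0.80 and 2.20, and so did the median without those 4. The settings re-read the same 2 arrays, so the constant sign is no replication.

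ETS factors and other genes that ERK signalling switches on were mixed. Of 12 outside the members, all above background, 4 were at least 2-fold higher and 2 lower, where 12.4% and 13.0% of all genes were so. Their median was 0.50. FOS, an immediate early transcription factor, read 165 on SB-OG and 25.9 on control-OG, at least 5.08-fold higher. PHLDA1 was 3.68-fold higher, at 1265 on SB-OG and 344 on control-OG (other probe sets 1.21 to 2.50). EGR1, a zinc finger factor induced by growth factors, read 4787 on SB-OG and 1393 on control-OG, 3.44-fold higher (other probe sets 1.78 to 1.98). ETV1, an ETS factor downstream of FGF signals, was 2.57-fold higher (other probe sets 0.43 to 0.92), whereas its relative ETV5 lay within 2-fold at 0.47. Another relative, ETV4, was under background on control-OG, at 20.5, and at least 1.53-fold higher in SB-OG. The lower genes were IER3, at 347 on SB-OG and 3410 on control-OG and 9.82-fold lower, and the AP-1 gene FOSL1, at 27.7 on SB-OG and 69.7 on control-OG and 2.52-fold lower. FOSL1 stood next to background on SB-OG, and its difference was 0.15 with the background at the 99th percentile.

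**Figure D3:**
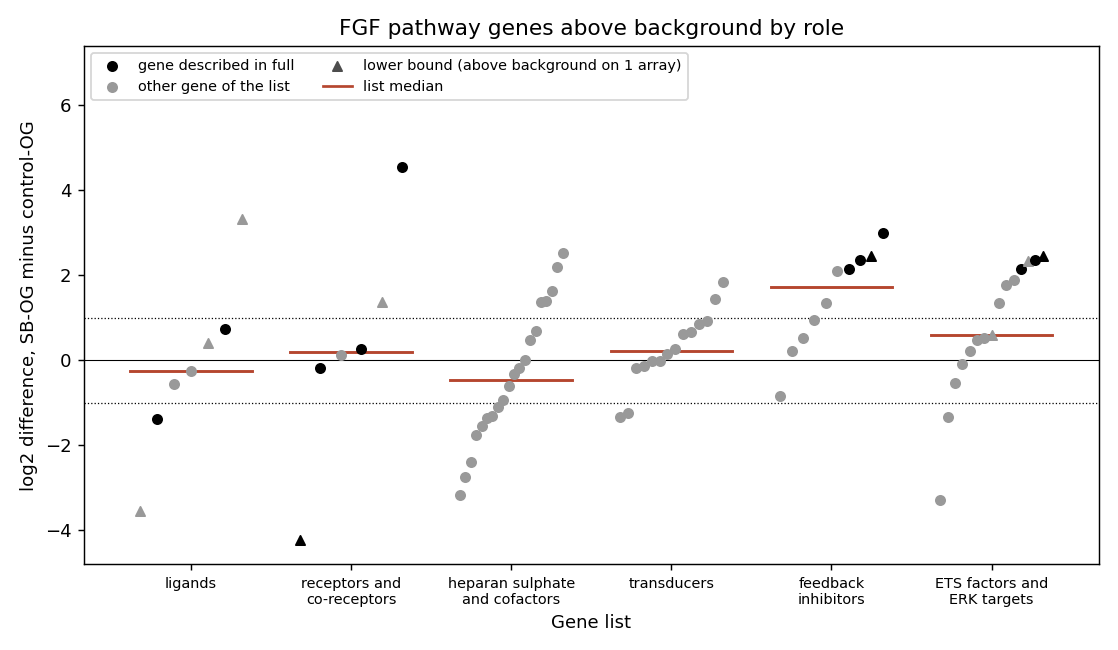
log2 differences (SB-OG minus control-OG) of the genes above background in 6 lists of FGF pathway genes. Black marks are the 10 genes described in full, grey marks the other genes, triangles lower bounds, horizontal bars the list medians and dotted lines 2-fold. Among these 6 lists the feedback inhibitors have the highest bar, at 1.73, with SPRED3 at -0.84 and DUSP5 at 0.21 among their lower points. The bars take in the genes described in full, which were chosen with earlier results known. Without them the median is 0.73 for the feedback inhibitors and 0.76 for the receptors (2 genes left). FGF homologues, with a median of 3.00, are not drawn.

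Genes for heparan sulphate and for other cofactors of the receptors went both ways. Of 20 above background, 5 were higher by 2-fold or more in SB-OG and 8 were lower, where 12.4% and 13.0% of all genes were so. Their median was -0.47. That median was 0.004 when the arrays were scaled on the hybridisation controls. SDC2, a syndecan core protein, read 4179 on SB-OG and 909 on control-OG, 4.60-fold higher. NCAM1, an adhesion molecule that can bind FGF receptors, read 2358 on SB-OG and 411 on control-OG, 5.74-fold higher (6 other probe sets, 1.36 to 3.47). SULF1, a sulphatase that trims heparan sulphate, read 220 on SB-OG and 1975 on control-OG, 8.99-fold lower. SDC4, another syndecan, was 6.65-fold lower, at 175 on SB-OG and 1165 on control-OG. EXT1, an enzyme that builds the heparan sulphate chain, was 5.26-fold lower, at 512 on SB-OG and 2690 on control-OG. FLRT3, a membrane protein that binds FGF receptors, was 3.38-fold lower, at 359 on SB-OG and 1212 on control-OG.

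Of 14 adaptors and kinases between receptor and ERK, 2 were at least 2-fold higher, 2 lower and 10 within 2-fold, with a median of 0.21. These counts are near the shares of all genes, 12.4% higher and 13.0% lower, and became 6 higher and 0 lower with scaling on the hybridisation controls. MAP2K1, the kinase MEK1, read 1421 on SB-OG and 397 on control-OG, 3.58-fold higher. GAB1, an adaptor of receptor tyrosine kinases, was 2.72-fold higher, at 227 on SB-OG and 83.4 on control-OG, with other probe sets at 0.23 to 1.73. The adaptor SHC1 was 2.53-fold lower, at 1970 on SB-OG and 4986 on control-OG, and MAPK3, the kinase ERK1, was 2.37-fold lower, at 141 on SB-OG and 334 on control-OG. The arrays measure transcripts, and phosphorylation of ERK was not measured.

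**Figure D4:**
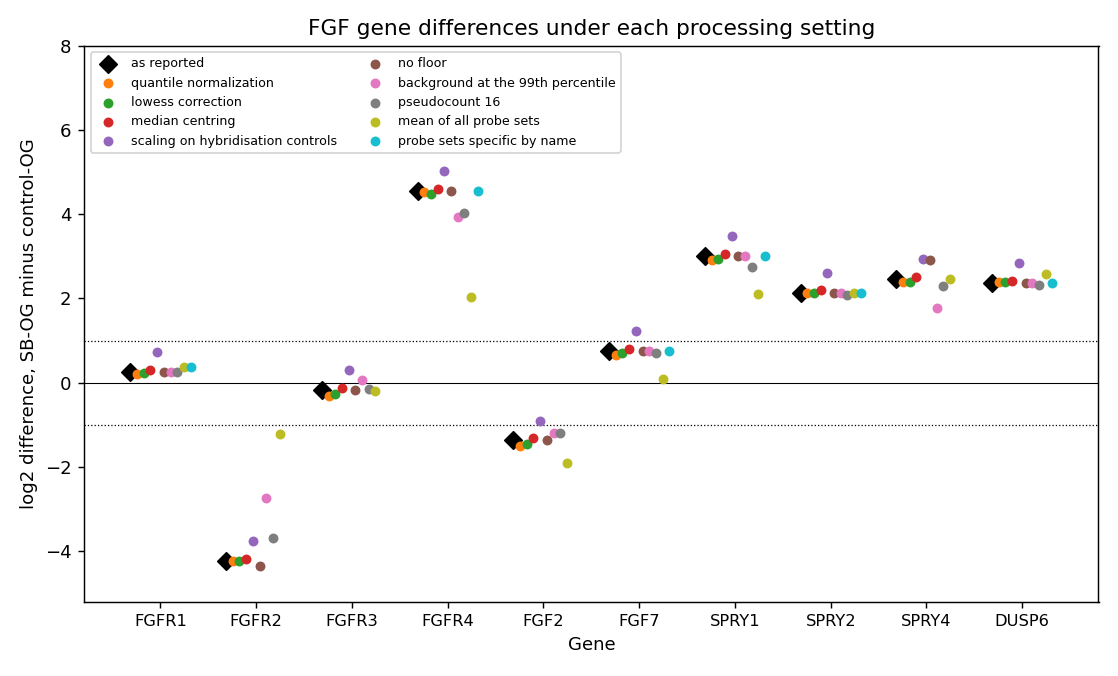
log2 difference (SB-OG minus control-OG) of each of the 10 genes as reported (diamonds) and under 9 other processing settings (circles). FGFR4, SPRY1, SPRY2, SPRY4 and DUSP6 stay above the dotted 2-fold line and FGFR2 below it in each setting that gave a value, while FGF2 comes within 2-fold at -0.90 and FGF7 passes it at 1.22 with scaling on the hybridisation controls.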

How the data were processed

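Intensities of 54675 probe sets on 2 arrays, 1 per condition, were analysed as deposited by the authors. Which software summarised the probes is not stated in the labels. Means that leave out 2% of probe sets at each end were 150.0 on both arrays, as after scaling to a common level, which hides any difference in total RNA per cell. The platform annotation named 41091 probe sets for 1 gene, with symbols updated by gene ID from a GRCh38.p14 table. The background was set from 213 probe sets of olfactory and taste receptor, keratin-associated, β-defensin and late cornified envelope genes. Each gene was read from the probe set brightest in mean log2 intensity, and the log2 difference was taken after values under background were set to it. Genes were counted at 2-fold. With 1 array per condition no test was possible, and precision is limited by that number.

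All 10 genes are named, with each probe set above background; 6 FGFR2 probe sets under background are given by range. Of each pathway list, the up to 6 genes furthest past 2-fold are named by rule; any further gene was picked after seeing its value. The genes and lists were chosen with earlier results of these data known. Of the pathway genes, 7 lacked a probe set of their own and were not analysed here. The functions were checked on simulated arrays. The software was pandas 2.3.3, numpy 2.4.6 and statsmodels 0.14.6 under Python 3.11.15, with matplotlib 3.10.9 for figures. The alternatives were quantile normalization, lowess (span 0.4), median centring, scaling on hybridisation controls, values with no floor, a pseudocount of 16, the 99th percentile as background, the mean of all probe sets, probe sets whose name lacks _s, _x and _a, and a 3-fold threshold.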

Additional observations from a re-analysis of the deposited data

Results flagged for a closer look

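SPRY4-IT1, a non-coding RNA from within the SPRY4 gene that the choice of genes did not include, had a signal above background on SB-OG in 1 of its probe sets. The probe set 1566968_at read 35.9 on SB-OG, against 3.83 on control-OG, and was at least 1.10-fold higher. The other, 1566967_at, was under background on both arrays, at 3.60 on SB-OG and 21.2 on control-OG.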

How the results depend on the processing

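With 1 array per condition, no replicate could be left out. No paired analysis was possible because each condition has 1 array. Of 86 differences of the 10 genes under the alternatives, 66 moved by less than 0.46, the SD between probe sets, and none past 2-fold turned its sign. Scaling on the hybridisation controls adds 0.47 to every difference by its construction and gave log2 differences of 0.73 for FGFR1, -3.76 for FGFR2, 0.29 for FGFR3, 5.03 for FGFR4, 3.47 for SPRY1, 2.61 for SPRY2, 2.93 for SPRY4, 2.84 for DUSP6, -0.90 for FGF2 and 1.22 for FGF7. With it 1 of the 10 genes was 2-fold lower, 24 other pathway genes were higher and 7 lower, and over all genes 3017 were higher and 909 lower. With the background at the 99th percentile, FGFR2 was at -2.75, FGFR4 at 3.94 and SPRY4 at 1.78. With the pseudocount, FGFR2 was at -3.70 and FGFR4 at 4.03. The mean of all probe sets, which takes in those under background, gave -1.23 for FGFR2, 2.03 for FGFR4, 2.11 for SPRY1, -1.91 for FGF2 and 0.090 for FGF7, and 11 other pathway genes were higher. With only probe sets specific by name, FGF2, FGFR3 and SPRY4 had none and FGFR2 had none above background, so that neither lower gene had a value. The counts of 0 lower genes and 0 lower probe sets, beside 6 higher probe sets, follow from that. At 3-fold, 1 of the 10 genes was lower, 10 other pathway genes were higher and 6 lower, and over all genes 791 were higher and 795 lower. Of 140 counts of single lists, 115 stayed within 1.5 times. Among the other genes named, KL, IL17RD, SPRED1, ETV1, FOSL1, GAB1, SHC1, MAPK3 and FGF11 came within 2-fold under at least 1 alternative.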

Other observations

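The intracellular FGF homologues, which bind voltage-gated sodium channels and do not act as secreted ligands, were also higher in SB-OG where detected. FGF13 read 2378 on SB-OG and 90.0 on control-OG, 26.4-fold higher, a larger difference than that of FGFR4. FGF11 read 78.7 on SB-OG and 22.3 on control-OG, at least 2.42-fold higher. FGF12 and FGF14 were not above background on either array.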
